A study of Mus musculus with 18 samples.

Results

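The 10 genes described here, Gas1, Gas2, Gas6, Pdgfra, Pdgfrb, Ccng2, Btg1, Btg2, Klf4 and Rbl2, were chosen by symbol as genes known from growth arrest together with the receptors of platelet-derived growth factor (PDGF), and all 10 were present among the 22019 genes of the deposited table of normalized messenger RNA signal. Polyadenylated RNA was sequenced in 18 libraries of NIH 3T3 TetON cells, a line of mouse embryonic fibroblasts. The cells were stable lines, which in 17 of the libraries carried a doxycycline-inducible retroviral construct, either SUN1L, the lumenal domain of SUN1 that disrupts the link between nucleus and cytoskeleton (the LINC complex), or the control KDEL, a green fluorescent protein held back in the same compartment, the endoplasmic reticulum. All received 1 μg/ml doxycycline for 48 hr, in medium with serum, on fibronectin-coated gels of 1 kPa (soft) or 308 kPa (stiff), and KDEL cells on 308 kPa also received 25 μM Y27, a kinase inhibitor that lowers actomyosin contractility, or 10 μM blebbistatin, an inhibitor of non-muscle myosin II. KDEL cells were further enriched by sorting for fluorescence, so that the constructs also differ in how their lines were made, and whether the lines are pools or clones is not given in the sources used here.

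Libraries are named by the laboratory's serial numbers: 4, 16 and 28 for KDEL on 1 kPa, 3, 15 and 27 for SUN1L on 1 kPa, 8, 20 and 32 for KDEL on 308 kPa, 7, 19 and 31 for SUN1L on 308 kPa, 12, 24 and 36 for Y27, and 10 and 22 for blebbistatin. Library 34 carried an empty vector and labels naming both inhibitors, so it stayed out of every group. In all, 3 runs of consecutive numbers can be told apart, 3 to 12, 15 to 24 and 27 to 36, and each holds 1 library per group, library 34 standing in the last where blebbistatin has none. The sources used here do not say what a run is. Libraries 3, 7 and 8 were singled out because genes of cell division were low in them: the summed signal of 12 division markers was 7147 to 10872 there and at least 49935 in the other 15 libraries. The estimated depth was 12670000 to 19460000 read pairs per library. Sun1, which the SUN1L construct carries, had a signal of 38452 to 82617 in the SUN1L libraries and of 2785 to 3799 in all others, as labelled. All 8 fibroblast markers were above the lowest value in every library, as were 2 of 5 epithelial, 3 of 4 endothelial and 1 of 4 leukocyte markers. Summed signals were 588013 to 939183 for the fibroblast list and 228 to 1169, 334 to 3979 and 64.6 to 311 for the others in that order, with Krt18 (epithelial) and Cd3e (leukocyte) at the lowest value in all libraries.

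Growth-arrest-specific (Gas) genes were first identified by their rise in fibroblasts deprived of serum or crowded to confluence. Gas1 encodes a membrane-anchored co-receptor of Hedgehog, Gas2 a protein of the actin and microtubule cytoskeleton, and Gas6 a secreted ligand of the TAM receptors Axl, Tyro3 and Mertk. The PDGF receptors α (Pdgfra) and β (Pdgfrb) are receptor tyrosine kinases through which serum drives fibroblast division. Btg1 and Btg2 are antiproliferative adaptors of the deadenylases that shorten messenger RNA tails, Ccng2 is an unconventional cyclin that rises when cells leave the cycle, Klf4 is a transcription factor that restrains division in many cells, and Rbl2 (p130) is the pocket protein that assembles the DREAM repressor complex in quiescent cells.

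The promoters of the 2 BTG genes are shown because each held a motif found in no other member's window. The estimated differences of these related genes with the inhibitors also had opposite signs, a reason taken from values already seen. For Btg2 the limma intervals included 0, from -0.74 to 2.1 with Y27 and from -0.73 to 2.44 with blebbistatin (log2 scale). An opposite response of the 2 genes was therefore not shown. RefSeq gave 300-base windows on GRCm38.p6, from 250 bases before to 50 after an annotated start, for 9 of the 10 genes (10 windows, 2 of them for Gas2). The table's own gene starts lay within 1000 bases of a RefSeq start for 9 of these 9 genes and were equal to one for 4. Positions given here are counted from the RefSeq start. The 250 bases before the start of Btg1 (chr10:96616751-96617000, plus strand) and of Btg2 (chr1:134079156-134079405, minus strand) read as follows, each 5′ to 3′, with matches to the searched motifs in capitals.
Btg1: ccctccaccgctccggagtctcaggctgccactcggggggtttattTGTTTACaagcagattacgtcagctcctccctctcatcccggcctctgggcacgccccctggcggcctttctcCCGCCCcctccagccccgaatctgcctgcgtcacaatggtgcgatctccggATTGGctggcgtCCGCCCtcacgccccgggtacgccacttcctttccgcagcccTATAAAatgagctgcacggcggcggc
Btg2: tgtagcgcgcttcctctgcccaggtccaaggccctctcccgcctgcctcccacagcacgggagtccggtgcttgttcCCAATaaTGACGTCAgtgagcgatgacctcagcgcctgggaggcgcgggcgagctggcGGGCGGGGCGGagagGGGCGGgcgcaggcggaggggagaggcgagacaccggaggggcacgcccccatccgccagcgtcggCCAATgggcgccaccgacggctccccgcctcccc

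The motifs searched on both strands were the FOXO core GTAAACA, the cyclic AMP response element TGACGTCA, the CHR element TTTGAA, the TATA box TATAAA, the CCAAT box CCAAT and the GC box GGGCGG. In the Btg1 window the FOXO core began 204 bases before the start, on the opposite strand, and 3.65% of all 32851 windows held this motif. The Btg1 window also held a TATA box (13.6% of all windows), which began 26 bases before the start. In the Btg2 window the cyclic AMP response element began 166 bases before the start, and 1.79% of all windows held it. It did not overlap the CCAAT box ahead of it, while 2 of the 3 GC boxes of Btg2 shared a base, as did 2 of the 4 of Klf4. The CHR element, known from promoters bound by the DREAM complex, was found in 17.9% of all windows and in those of Pdgfra and Rbl2. Of the 2 windows of Gas2 it was in 1, which is not the one at the table's own gene start. CCAAT and GC boxes were found in 37.4% and 35.7% of all windows. These matches are descriptions of letters and not of bound sites.

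Signal values are linear, scaled between libraries by the trimmed mean of M-values and not divided by gene length, so levels are compared between libraries and not between genes. Gas1 on chromosome 13 had the second widest range among the members other than Gas6, 6.93-fold. Its signal was 4488, 2931 and 2630 in KDEL cells on 1 kPa, 4715, 2245 and 1757 in SUN1L cells on 1 kPa, 4602, 2995 and 2507 in KDEL cells on 308 kPa, 5741, 2157 and 1443 in SUN1L cells on 308 kPa, 9995, 3021 and 3397 with Y27, 7667 and 2037 with blebbistatin, and 3036 in library 34, with the libraries of each group in the order of the runs. In every group the library of the first run was the highest and all groups overlapped with one another. Gas2, on chromosome 7, stayed within 200 to 454 signal units, with group means between 289 ± 10.3 (SD, n = 2, blebbistatin) and 351 ± 62.2 (SD, n = 3, SUN1L on 1 kPa). Gas6 was close to the lowest value of 1 in every library, with at most 7.08 signal units. The worth of 1 read pair was estimated at 1.70 to 2.49 units. The messenger RNA of Gas6 was therefore at or near the limit of detection, and no fold change is given for it. Its receptor Axl was detected in every library, at 20690 to 44020.

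The 2 PDGF receptors were well above the lowest value in all 18 libraries. Pdgfra, on chromosome 5, had a mean signal of 3824 ± 930 in KDEL cells on 1 kPa, 3893 ± 1390 in SUN1L cells on 1 kPa, 3640 ± 1193 in KDEL cells on 308 kPa, 3601 ± 1700 in SUN1L cells on 308 kPa and 3853 ± 2261 with Y27 (SD, n = 3 each), and 3914 ± 1021 with blebbistatin (SD, n = 2). These means lay closer together than the libraries within any group. Pdgfrb, on chromosome 18, had means of 5723 ± 1510, 5076 ± 625, 4703 ± 1967, 4417 ± 1111 and 6808 ± 2289 in the same order of groups (SD, n = 3 each) and 6475 ± 275 with blebbistatin (SD, n = 2). The highest single value, 9231, was in library 24 with Y27 and the lowest, 3170, in library 32 of untreated KDEL cells on 308 kPa.

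Btg1, on chromosome 10, was at 3934, 4461 and 4787 in KDEL cells on 1 kPa, 7157, 5083 and 5078 in SUN1L cells on 1 kPa, 6986, 4700 and 4194 in KDEL cells on 308 kPa, 6944, 4914 and 4495 in SUN1L cells on 308 kPa, 3754, 3341 and 3714 with Y27, 3664 and 3286 with blebbistatin and 4002 in library 34. The 3 libraries with low division markers were the 3 highest, and the 5 libraries of the inhibitor groups were the lowest, followed by library 4 of KDEL on 1 kPa and library 34. Btg2, on chromosome 1, ranged 7.49-fold, from 778 in library 27 to 5824 in library 10, and its group means ran from 1407 ± 366 (SD, n = 3, KDEL on 1 kPa) to 3783 ± 2887 (SD, n = 2, blebbistatin). Klf4, on chromosome 4, was at 10102, 9873 and 7516 in KDEL cells on 1 kPa, 14512, 11784 and 9609 in SUN1L cells on 1 kPa, 12577, 9266 and 7914 in KDEL cells on 308 kPa, 11469, 11139 and 8632 in SUN1L cells on 308 kPa, 15376, 22183 and 11851 with Y27, 12931 and 13625 with blebbistatin and 15067 in library 34. Ccng2, on chromosome 5, ran from 241 in library 34 to 1170 in library 19, and Rbl2, on chromosome 8, ran only 1.85-fold, from 573 in library 31 to 1061 in library 7.

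**Figure D1:**
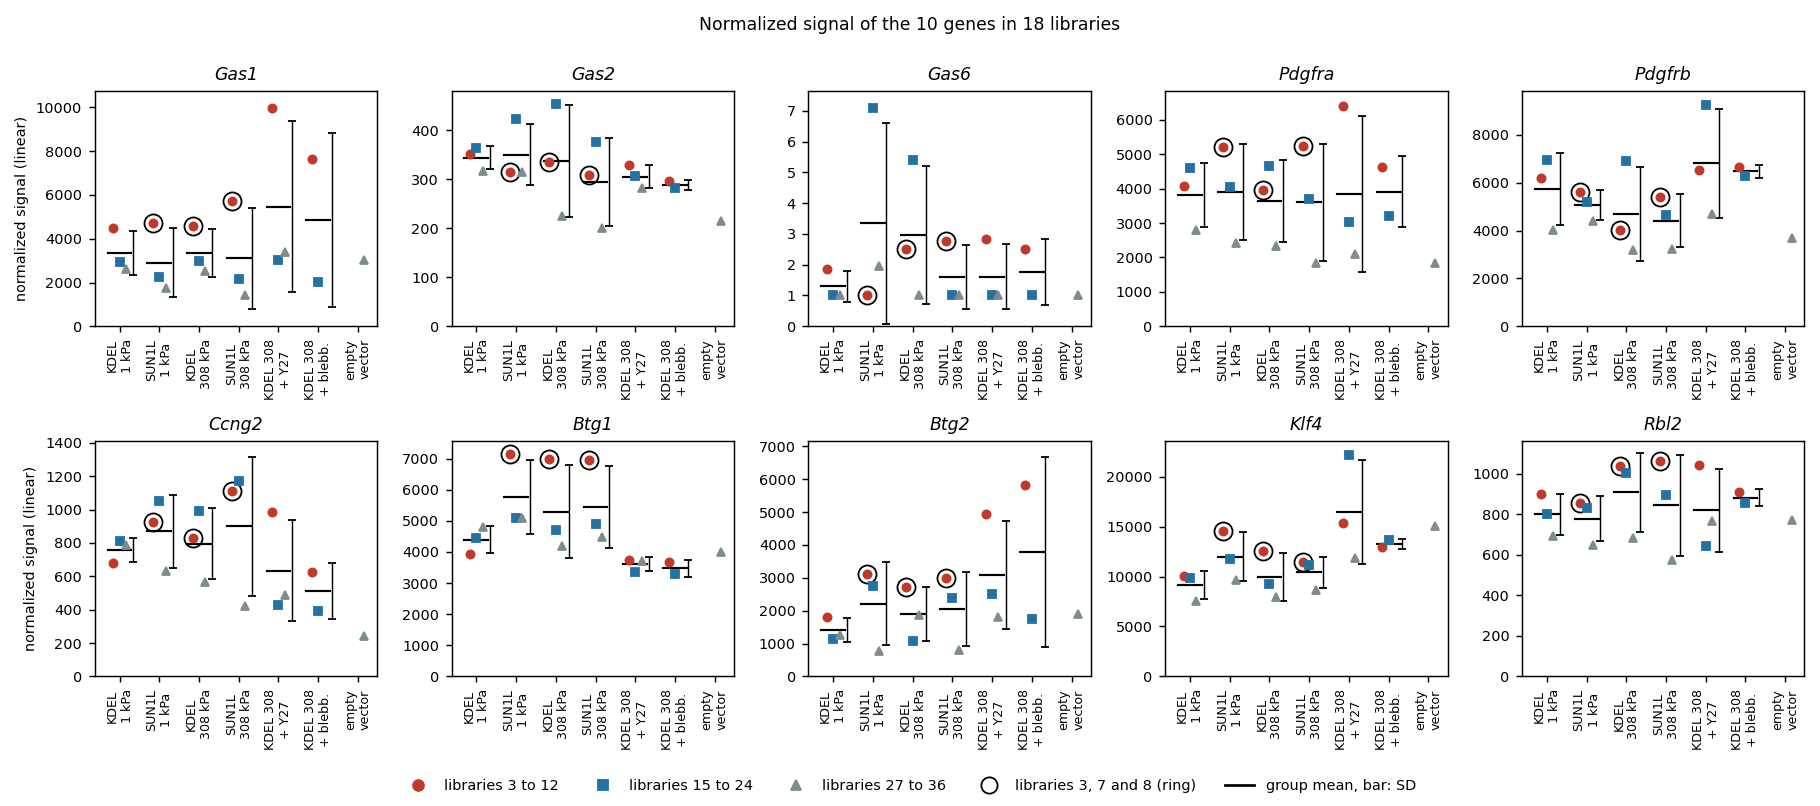
Normalized signal (linear axis from 0) of the 10 genes in the 18 libraries, by group; symbols and colours mark the run of library numbers, rings mark libraries 3, 7 and 8, lines are group means and bars SD. For Gas1 the library of the first run was the highest in each group, for Pdgfra that of the last run was the lowest in each group that had one, and for Btg1 the 3 ringed libraries, at 6944 to 7157, lay above the other 15.

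The first question of the design, how far disrupting the LINC complex changed messenger RNA on each rigidity, found 0 of the 10 genes called. The call required both a limma adjusted p below 0.05 and a difference of 2-fold or more, and 0.0874% of the 16021 tested genes were called on 1 kPa, 0.0624% on 308 kPa and 0.181% over both rigidities. All 10 genes passed the filter for testing, Gas6 through values just above the lowest. At an unadjusted p under 0.05, 0 of 10 passed on either rigidity or over both, where 4.54%, 2.53% and 6.80% of all genes did. SUN1L libraries were higher for 6 of the 10 genes on 1 kPa and 4 on 308 kPa, with median log2 fold changes of 0.09 and -0.06, beside -0.01 and -0.03 over all genes.

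Among single genes, Btg1 was the only one whose groups on 1 kPa did not overlap, with SUN1L at 5773 ± 1199 and KDEL at 4394 ± 430 (SD, n = 3 each), a log2 difference of 0.38 (SE 0.23, limma adjusted p = 0.93). SUN1L libraries lay above all KDEL libraries for 6.65% of all tested genes in that comparison. The difference was 0.86, 0.19 and 0.09 within the 3 runs, the first being library 3 with its low division markers against library 4. On 308 kPa Btg1 differed by 0.05 (SE 0.23) and within runs by -0.01, 0.06 and 0.10. Klf4 was higher with SUN1L by a log2 difference of 0.38 on 1 kPa (SE 0.22, limma adjusted p = 0.93) and 0.09 on 308 kPa (SE 0.22, limma adjusted p = 1). With the run as a block, the same 0.38 for Klf4 had an SE of 0.10 and an unadjusted p of 0.00299, with a limma adjusted p of 0.229 (14.1% of all genes were under 0.05 unadjusted in that fit), and within the 3 runs it was 0.52, 0.26 and 0.35.

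Gas1 was lower with SUN1L by -0.30 on 1 kPa and -0.32 on 308 kPa on the log2 scale (SE 0.50 each). In the runs from library 15 on it was lower on both rigidities (-0.38 and -0.58 on 1 kPa, -0.47 and -0.80 on 308 kPa), whereas in the first run, whose SUN1L libraries are 3 and 7, it was 0.07 and 0.32. Without libraries 3, 7 and 8 the difference over both rigidities was -0.67 (limma unadjusted p 0.0118, limma adjusted p = 0.459). With them it was -0.31 (SE 0.35, limma adjusted p = 0.918). The fit without them had no term for the run. It held no SUN1L library of the first run but kept the KDEL library of that run on 1 kPa. Gas1 was higher in the first run, so the -0.67 mixes the run with the construct. Within the runs from library 15 on, the difference over both rigidities was -0.43 and -0.69. The PDGF receptors differed little between the constructs over both rigidities, Pdgfra by -0.05 (95% interval -0.69 to 0.60) and Pdgfrb by -0.09 (-0.57 to 0.38) on the log2 scale. The intervals do not reach a 2-fold difference for either receptor.

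The second question, how the genes responded to rigidity, also found 0 of 10 called, as 0% of all tested genes were called in KDEL cells, in SUN1L cells or over both. At an unadjusted p under 0.05 limma found 0 of the 10 genes, beside 1.37% of all genes in KDEL cells, 1.93% in SUN1L cells and 2.91% over both. Pdgfrb had the smallest p over both constructs, with a log2 difference of -0.28 on 308 kPa (SE 0.21, 95% interval -0.75 to 0.20, limma adjusted p = 1). Gas1 differed by -0.01 (SE 0.35) and Klf4 by -0.05 (SE 0.15). In KDEL cells Btg1 was higher on 308 kPa by 0.24 (SE 0.23), a difference that was 0.83 between libraries 8 and 4 and 0.08 and -0.19 in the other runs. Without libraries 3, 7 and 8 it was 0.02 in KDEL cells, with the first run then present only on 1 kPa.

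Whether the response to rigidity differed between SUN1L and KDEL cells was tested as an interaction, for which 0 of 10 genes and 0% of all genes passed a Bonferroni-corrected p under 0.05. The unadjusted p was under 0.05 for 0 of the 10 genes and 0.905% of all genes. The estimate was below 0 for 9 of the 10 genes, Gas6 with its values near the lowest among them, with a median of -0.14 beside 0 over all genes. The share of all genes below 0 was not counted. The largest apart from Gas6 were those of Btg2 (-0.43, SE 0.85), Btg1 (-0.33, SE 0.32) and Klf4 (-0.29, SE 0.31). With the run as a block the SE was 0.62, 0.24 and 0.13 in that order, and the estimate of Klf4 had an unadjusted p of 0.0574 (limma adjusted p = 0.986). Without libraries 3, 7 and 8 the estimates were -0.13 for Btg2, -0.13 for Btg1 and -0.03 for Klf4, and that of Gas1 went from -0.02 to 0.08. That fit kept the first run only in KDEL cells on 1 kPa, so its estimates mix the run with the interaction.

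The third question concerned myosin tension, with Y27 and blebbistatin each set against the same 3 untreated KDEL libraries on 308 kPa, which also serve the comparisons above. These comparisons are therefore not independent of one another. With either inhibitor 0 of 10 genes were called, as were 0% of all tested genes. Unadjusted, 2 of 10 genes passed with Y27 and 1 of 10 with blebbistatin, where 5.80% and 3.04% of all genes did.

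Btg1 was lower with both inhibitors. With Y27 it was 3603 ± 228 against 5293 ± 1487 in untreated cells (SD, n = 3 each), a log2 difference of -0.52 (SE 0.19, 95% interval -0.98 to -0.07), with an unadjusted p of 0.0303 and a limma adjusted p of 0.827. All 3 Y27 libraries lay below all 3 untreated ones, which held for 3.62% of all genes in this direction. With blebbistatin Btg1 was at 3475 ± 267 (SD, n = 2), a log2 difference of -0.57 (SE 0.21), with an unadjusted p of 0.0322 and a limma adjusted p of 1, again without overlap (5.85% of all genes in this direction). Within the runs the differences were -0.90, -0.49 and -0.18 with Y27 and -0.93 and -0.52 with blebbistatin. Library 8, with its low division markers, is one of the untreated libraries. Without it the Btg1 difference was -0.30 with Y27 (limma unadjusted p 0.0216, limma adjusted p = 0.64). With blebbistatin it was -0.36 (limma unadjusted p 0.0167, limma adjusted p = 0.971). The untreated group then held no library of the first run.

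Klf4 was higher with Y27, at 16470 ± 5253 against 9919 ± 2399 in untreated cells (SD, n = 3 each), a log2 difference of 0.71 (SE 0.26, 95% interval 0.08 to 1.34), with an unadjusted p of 0.0325 and a limma adjusted p of 0.827. The groups overlapped, since library 36 with Y27, at 11851, was below untreated library 8, at 12577. The difference was 0.29, 1.26 and 0.58 within the 3 runs. With blebbistatin Klf4 was 13278 ± 491 (SD, n = 2), a log2 difference of 0.45 (SE 0.30, limma adjusted p = 1), and both libraries lay above the 3 untreated ones, as for 7.20% of all genes in this direction.

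The other members did not pass either test with an inhibitor. Pdgfrb differed by 0.56 with Y27 (SE 0.34) and 0.54 with blebbistatin (SE 0.38), and Pdgfra by -0.02 (SE 0.45) and 0.14 (SE 0.51), all log2 differences. With the run as a block the Y27 difference of Pdgfrb had an unadjusted p of 0.0278 and a limma adjusted p of 0.564, in a fit with 8.50% of all genes under 0.05 unadjusted. Btg2 differed by 0.68 (SE 0.59) with Y27 and 0.86 (SE 0.66) with blebbistatin, opposite in sign to Btg1, and Ccng2 by -0.39 (SE 0.38) and -0.65 (SE 0.43). The intervals with Y27 reached 2.04 for Gas1 and 2.10 for Btg2 on the log2 scale, so a difference of over 2-fold lay within them. Fibroblast markers were higher with Y27 for 8 of 8 genes, with a median log2 difference of 0.69 and an unadjusted p under 0.05 for 3 of them, and division markers for 12 of 12 with a median of 0.86, library 8 being among the untreated libraries. With blebbistatin the same 8 of 8 and 12 of 12 were higher, with medians of 0.41 and 0.75 and 0 genes at an unadjusted p under 0.05. Of the endothelial markers, Tek was at 3928, 2589 and 779 with Y27 against 682, 244 and 125 in untreated cells (log2 difference 2.85, SE 0.84, unadjusted p 0.0122, limma adjusted p = 0.793). It was the only 1 of these 4 markers at an unadjusted limma p under 0.05 with Y27. Of the 4, 3 were higher and 1 lower with Y27 (median 0.32), and 1 was higher and 3 lower with blebbistatin (median -0.64). The part of these markers in the differences of Btg1 and Klf4 was not tested, and in such bulk samples fewer cells of a type and less RNA per cell cannot be told apart.

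**Figure D2:**
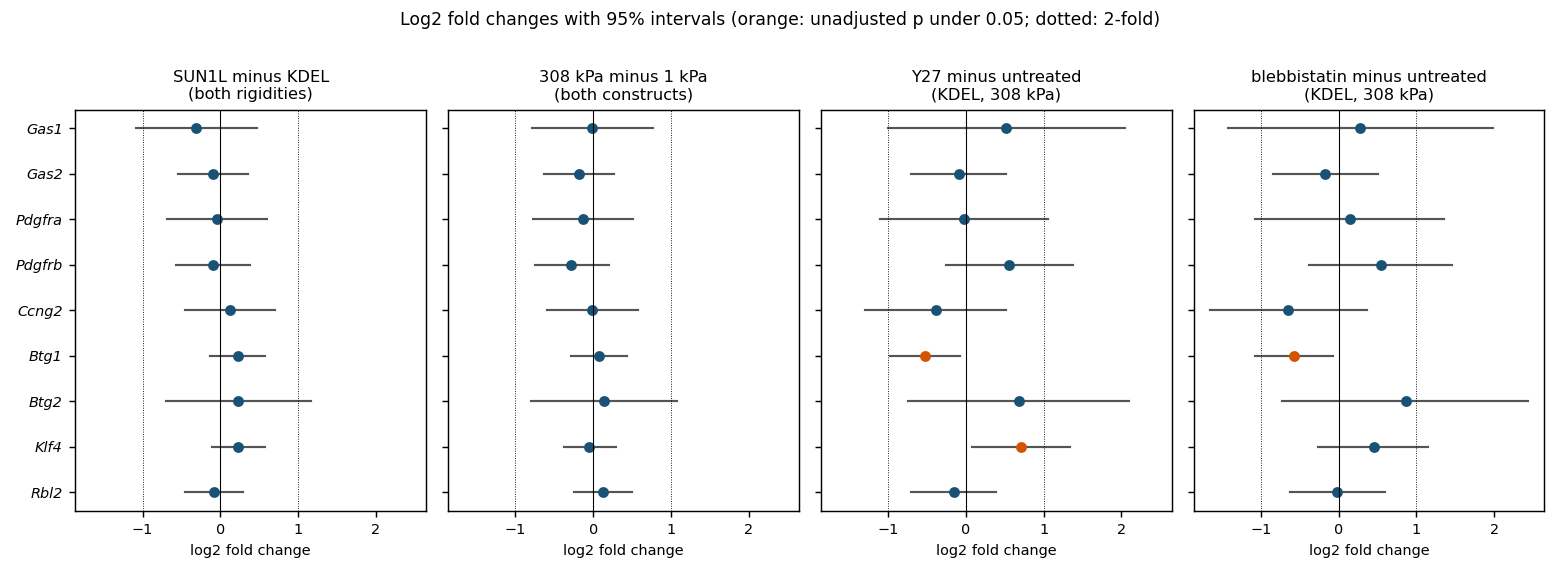
Log2 fold changes (points) and their 95% intervals (lines) from limma for 9 of the 10 genes in 4 comparisons; Gas6, near the lowest value, is left out. Intervals exclude 0 only for Btg1 with Y27 (-0.52), Klf4 with Y27 (0.71) and Btg1 with blebbistatin (-0.57), and 0 of the genes passed the adjusted test.

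Libraries 3, 7 and 8 were picked by their division genes and are no group of the study, so they are described by library. Btg1 held places 1, 2 and 3 of the 18 libraries in them, at 7157, 6986 and 6944 in libraries 3, 8 and 7, while the other 15 ran from 3286 to 5083. The other libraries of the same run (4, 10 and 12) were at 3664 to 3934. Of all tested genes, 8.80% were higher in these 3 libraries than in any of the other 15 and 12.9% lower than in any other. Btg1 was the only one of the 10 genes in either class.

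Gas1 was high in these libraries as well (places 4, 3 and 5 for libraries 3, 7 and 8), but the remaining libraries of the first run, in which division markers were not low, ran from 4488 to 9995 and included the 2 libraries above them. Btg2 behaved alike, at 3105, 2998 and 2720 in libraries 3, 7 and 8 beside 1820 to 5824 in libraries 4, 10 and 12. Rbl2 was at 854, 1061 and 1037, with 897 to 1044 in the other libraries of the run. Ccng2, at 925, 1112 and 830, exceeded 11 of the other 15 libraries with its lowest value. Library 19, in which division markers were not low, reached 1170. Its mean log2 signal of division markers was 11.83, beside 11.52 to 12.31 in the other 15 libraries as a whole. The PDGF receptors took places 3, 2 and 9 (Pdgfra) and 8, 9 and 15 (Pdgfrb), Klf4 places 4, 10 and 7, and Gas2 places 9, 11 and 6.

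Across the 18 libraries the correlation with the mean log2 signal of the 12 division markers had its most negative Pearson r for Btg1 (-0.84), and 2.95% of tested genes had an r as low or lower. By Spearman rank correlation Btg1 was at -0.56, and Pdgfra (-0.78), Ccng2 (-0.71), Rbl2 (-0.63) and Gas6 (-0.61) were more negative, that of Gas6 from values near the lowest. The r of Btg1 rested on libraries 3, 7 and 8: without them it was -0.27 over 15 libraries. Gas1 had r = -0.41 and -0.23 without them, whereas Gas2 went from -0.18 to -0.72 and Pdgfra from -0.51 to -0.69. The points share their runs and their scaling, so these values are descriptions.

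**Figure D3:**
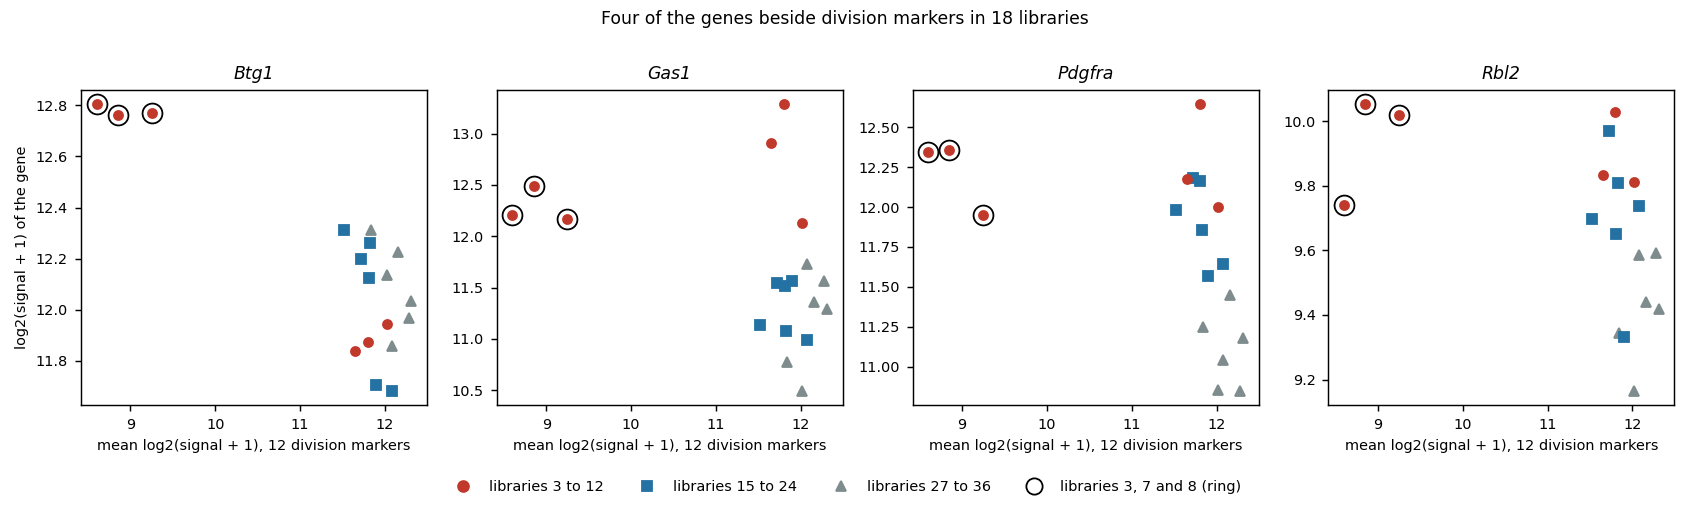
Log2(signal + 1) of Btg1, Gas1, Pdgfra and Rbl2 against the mean log2(signal + 1) of 12 division markers in 18 libraries; symbols and colours mark the runs of library numbers and rings libraries 3, 7 and 8. The ringed libraries, at 8.60 to 9.25 on the division axis beside 11.52 to 12.31 for the others, were highest in Btg1, but unringed libraries of the same run were as high in Gas1.

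For 7 of the 10 genes the runs of library numbers held more of the spread than the groups did, a comparison made after the values were seen. Of the squared log2 deviations over the 17 libraries with a group, differences between runs held 80.2% for Pdgfra, 71.7% for Gas1, 62.9% for Rbl2, 51.6% for Gas2, 49.4% for Pdgfrb and 47.0% for Btg2, while groups held 2.27%, 16.9%, 8.48%, 15.8%, 33.4% and 24.7%. The median over all tested genes was 29.9% for runs and 28.2% for groups. Groups held more than runs for Btg1 (62.1% and 16.7%), Klf4 (56.4% and 30.6%) and Gas6.

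In a limma model with group and run, 7 of 10 genes had an adjusted p under 0.05 in the F test of the runs, as did 39.3% of all tested genes. Without libraries 3, 7 and 8 there were 5 of 10 (Gas1, Gas2, Pdgfra, Pdgfrb and Klf4), beside 26.0% of all genes. Gas1 was higher in the first run than in the others by a log2 difference of 1.31 (SE 0.15, limma adjusted p = 0.000295), and by 1.39 (SE 0.20, limma adjusted p = 0.00901) without the 3 libraries. Its signals were 4488 to 9995 in the first run, 2037 to 3021 in the second and 1443 to 3397 in the third, so the first did not overlap the others. Pdgfra was lower in the third run by -0.95 (SE 0.14, limma adjusted p = 0.00128), with 1843 to 2791 there and at least 3040 elsewhere.

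All 10 genes were lower in the third run than in the others by their estimates, with a median of -0.60 beside 0.01 over all genes. For 8 of the 10 the limma adjusted p was under 0.05. Of all genes, 30.6% passed this threshold in either direction, and the share that was lower was not counted. Pdgfrb differed by -0.62 (SE 0.11, limma adjusted p = 0.00294), Rbl2 by -0.42 (SE 0.10, limma adjusted p = 0.0092) and Klf4 by -0.47 (SE 0.10, limma adjusted p = 0.00466). The difference of Btg1 in the first run, 0.30 (SE 0.10, limma adjusted p = 0.0396), was -0.01 (SE 0.08, limma adjusted p = 0.973) without libraries 3, 7 and 8. What differed between the runs is not given in the sources used here.

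**Figure D4:**
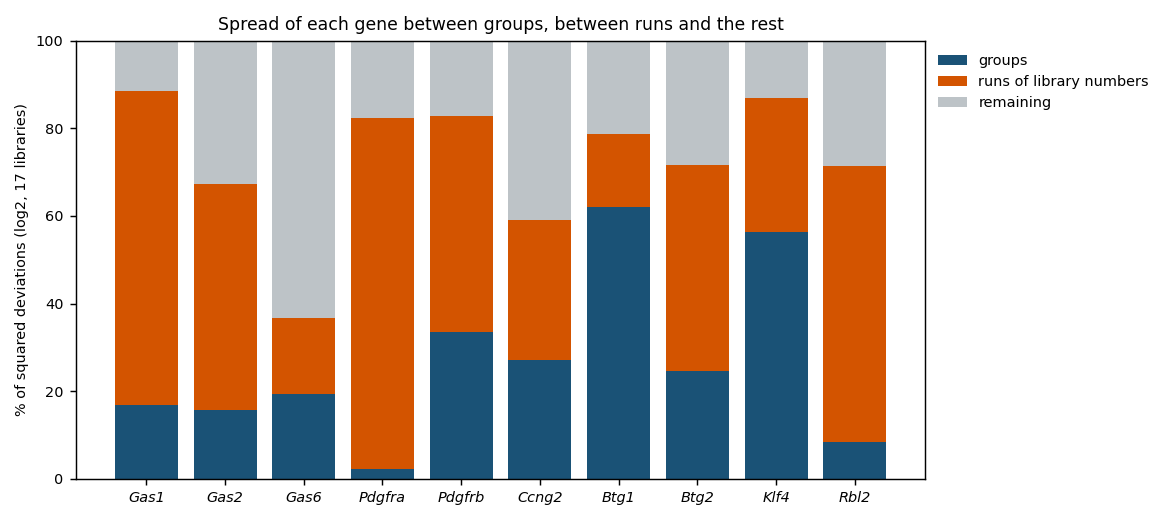
Share (%) of the squared log2 deviations of each gene over 17 libraries that lay between groups, between runs of library numbers within groups, and in the remainder. Runs held the largest share for Pdgfra (80.2%), Gas1 (71.7%), Rbl2 (62.9%), Gas2 (51.6%), Pdgfrb (49.4%) and Btg2 (47.0%), and groups for Btg1 (62.1%) and Klf4 (56.4%).

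Among the members, 41 of 45 pairs had a positive Pearson r over the 18 libraries, as a description of points that share the runs. The closest were Gas1 with Btg2 (0.79), Pdgfra with Rbl2 (0.79), and Ccng2 with Gas2 and with Pdgfra (0.76 each), and the lowest was Pdgfrb with Btg1 (-0.29). After group and run means were removed, over 17 libraries, 12 of 45 pairs were negative, among them 7 of the 9 pairs of Klf4. These went down to -0.56 with Rbl2 and -0.58 with Gas6, whose values were near the lowest. Gas1 with Pdgfra was at 0.88, Pdgfra with Ccng2 at 0.81 and Gas1 with Btg2 at 0.53. Among tested genes of at least median signal, the one most like each member over the 18 libraries was Zfp281 for Pdgfra (r = 0.967), Appbp2 for Rbl2 (0.960), Mex3a for Btg1 (0.946), Rap2a for Gas1 (0.927), Tcf4 for Ccng2 (0.914), Synpo for Pdgfrb (0.904), Lrig3 for Btg2 (0.899), Atf7ip for Gas2 (0.894), Arap1 for Klf4 (0.883) and Scamp1 for Gas6 (0.717). The last rests on Gas6 values near the lowest.

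The partners of these genes were followed in lists of related genes. In the 7 lists of ligands, receptors, family members and complexes, 0 genes were called in any comparison. Of 3 tested PDGF ligands, Pdgfb, the ligand of both receptors, had an unadjusted p under 0.05 with Y27 and blebbistatin (limma adjusted p = 0.793 and 1). All 3 untreated libraries were listed at the lowest value of 1, and the inhibitor libraries at only 2.11 to 8.60. By estimate these are a few read pairs, so no fold change is given for Pdgfb. Of the 4 TAM receptors and ligand genes other than Gas6 none passed an unadjusted p under 0.05 in any limma comparison. Of 16 FOXO factors and their textbook targets, Cdkn1b, the cyclin-dependent kinase inhibitor p27, was lower with SUN1L over both rigidities (-0.31, SE 0.09, unadjusted p 0.00718, limma adjusted p = 0.493), and 3.03% of all genes were lower at that unadjusted threshold. With Y27, unadjusted p-values under 0.05 were found for Gas7, a cytoskeletal Gas gene (log2 difference 1.00, SE 0.35), Tob1, an antiproliferative relative of the BTG genes (0.29, SE 0.11), and Klf2, a relative of Klf4 and FOXO target (1.28, SE 0.48), which were higher as for 3.49% of all genes, and for Rbbp4, a DREAM subunit, which was lower (-0.27, SE 0.10); their limma adjusted p-values were 0.803 to 0.827. Of the 7 tested Hedgehog partners and cyclin G paralog, Smo had an unadjusted p of 0.0422 with SUN1L over both rigidities (-0.18, SE 0.08, limma adjusted p = 0.72) and Ihh, at 1 to 13.5 signal units, one of 0.0326 on 308 kPa over both constructs. The same unadjusted limma threshold was passed by Cdkn1b, lower with SUN1L on each rigidity, and Ihh, lower on 308 kPa in SUN1L cells. Rbbp4, higher on 308 kPa over both constructs, and the FOXO target Txnip, lower with blebbistatin, passed it too. In either direction 2.91% of all genes passed on 308 kPa over both constructs, 3.04% with blebbistatin and 5.80% with Y27.

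Several partners also stood apart in libraries 3, 7 and 8, and those that follow were named after their values were seen. Of 11 pocket proteins and DREAM subunits, 5 were lower in all 3 libraries than in any other (12.9% of all tested genes were), among them Rbl1 (p107), the relative of Rbl2, at 387.8, 495.1 and 508.3 against at least 1081. Rb1, the retinoblastoma gene, was higher in all 3 (as were 8.80% of all tested genes), at 1234, 1369 and 1519 against at most 1165. Axl and Tyro3, 2 of the 3 TAM receptors, were lower in all 3, with Axl at 20690 to 23540 against at least 30680. Gas2l3, 1 of the 4 other Gas-named genes, was also lower, at 217.3, 294.7 and 266 in libraries 3, 7 and 8 against at least 1018. Pdgfc, a ligand of PDGF receptor α, was higher at 2435 to 2815 against at most 1848, and Cdon, a Hedgehog co-receptor like Gas1, at 650.2 to 856 against at most 631.2. Of the 16 FOXO factors and targets, 3 were higher in all 3 libraries (Txnip, Cited2 and Fbxo32) and 2 lower (Klf2 and Klf6). Of all tested genes 8.80% were higher and 12.9% lower in this way. Txnip, an inhibitor of thioredoxin, was at 953.8 to 1233 against at most 732.4, and Cnot7, a deadenylase that binds Btg1, at 1981 to 2349 against at most 1976. Among fibroblast markers 4 of 8 were lower in all 3 libraries than in any other, beside 12.9% of all tested genes, a shift whose part in these values was not tested.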

How the data were processed

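The authors sequenced polyadenylated RNA as 50-bp paired-end reads, aligned them with TopHat2 2.0, filtered them by quality, mates and duplicates in AvadisNGS and scaled the result between libraries (trimmed mean of M-values). What the authors deposited is 1 linear signal value for each gene in each library, with 1 as the lowest. The methods name the genome mm9, while gene positions in the table lie near RefSeq starts on GRCm38.p6. Low signals were multiples of 1.70 to 2.49 units per read pair in only 40.3% to 43.7% of values (within 0.01 of a step), so whole reads were not recovered. Depth and therefore the precision of low values rest on 12670000 to 19460000 estimated read pairs per library.

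From the deposited signal, log2(value + 1) was computed and tested two-sided (R 4.3.3, limma 3.58.1, variance trend, Benjamini-Hochberg adjustment) over the 16021 of 22019 genes that exceeded the lowest value in 3 or more libraries. Fold changes are on this scale. SUN1L, rigidity and their interaction were fitted on 12 libraries and the inhibitors on 8. The methods state 3 biological replicates per condition without saying how separate they were, so the p-values measure only the spread between these libraries. The study's z-score calculation, whose inputs are not given in the sources used here, was not used. A single gene's exact permutation test of 3 against 3 libraries cannot go below 0.1. The model was tested on simulated data.

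Library 34 was matched by its heading to a column numbered 35. Alternatives were other pseudocounts (8 and 0.1), other filters, quantile normalization, 1 fit of all libraries, no trend, array weights, a block on runs, left-out libraries and the empty vector library in either inhibitor group. The members, lists and tests were chosen with earlier results of these data known. All members were named, at most 4 genes of a list by smallest p, and the gene most like each member.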

Additional observations from a re-analysis of the deposited data

How the results depend on the processing

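The count of 0 called members was the same in all 192 alternative fits of the 9 comparisons. The Btg1 and Klf4 differences with the inhibitors kept their direction in all 19 alternatives each, with log2 ranges of -0.67 to -0.30 (Btg1, Y27), 0.47 to 0.92 (Klf4, Y27) and -0.72 to -0.36 (Btg1, blebbistatin), and limma adjusted p-values of 0.263 to 1, 0.424 to 1 and 0.70 to 1. Btg1 was nearest 0 without library 8 of untreated KDEL cells, and Klf4 was at 0.47 without library 24.

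The number of members at an unadjusted limma p under 0.05 rested on few genes. For SUN1L on 1 kPa and over both rigidities it went from 0 to 1 with array weights, with the replicate block on runs (Klf4) and without libraries 3, 7 and 8 (Gas1), and for rigidity in SUN1L cells and for the interaction from 0 to 1 with array weights. With Y27 it went from 2 to 1 under quantile normalization. Leaving out 1 library gave 0 to 1 for SUN1L on 1 kPa, 0 to 2 over both rigidities (2 without library 8), 0 to 1 for rigidity in KDEL cells and over both constructs, 0 to 2 with Y27 (0 without library 12 or 24) and 0 to 2 with blebbistatin (0 without any of libraries 10, 12, 22 and 36). The cause was not tested. Without libraries 3, 7 and 8 the Gas1 comparison kept a KDEL library of the first run but no SUN1L library of it.

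The labels number no replicates, and the runs were used as a block only as an alternative. Deviations from group means correlated at 0.07 to 0.67 in pairs of libraries from the same run, 37 of 40 above 0.1, and at -0.61 to 0.15 in pairs from different runs. The main fits leave out this likeness within runs. For Gas1 with SUN1L on 1 kPa the SE was 0.5 in the main fit and 0.2 with the block. With the block, members at an unadjusted p under 0.05 with Y27 were 3 instead of 2, and it made 0 adjusted calls. For the test of the runs, chosen after seeing the data, leaving out libraries 3, 7 and 8 gave 5 members instead of 7. Depth limits what can be said of Gas6 and Pdgfb.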
